A study of Mus musculus with 7 samples.

Results

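Regulators of G protein signaling other than *Rgs14* were followed through 7 RNA-Seq libraries of mouse hippocampal area CA2: *Rgs2*, *Rgs4*, *Rgs6*, *Rgs7*, *Rgs8*, *Rgs10*, *Rgs12*, *Rgs16* and *Rgs17*. These 9 genes were taken by symbol from the 41567 gene rows of the kit comparison and the 22814 gene rows of the sheared libraries. Their 256 exon pieces were taken from the 437023 pieces of the exon table. *Rgs14*, a marker of CA2 pyramidal cells, served as the reference to which each gene was set. CA2 was cut out by laser capture from male Amigo2-EGFP mice on a C57BL/6 background, 6 weeks of age, in which green fluorescence under the Amigo2 promoter marks the region. The labels call all libraries CA2, though the study also describes captures in which PicoPure was used on neighbouring CA1. By their labels all 7 libraries come from this line and region, so no library is labelled as another tissue or strain.

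The kit comparison held 4 unsheared libraries, which joined 2 library kits (NuGEN Ovation and Clontech SMARTer) with 2 RNA samples (QIAGEN extraction, RNA integrity number 9, and PicoPure extraction, RNA integrity number 7). Each combination was sequenced as 1 library, amplified with 20 PCR cycles. The other 3 libraries were sheared NuGEN libraries of QIAGEN RNA at 16, 18 and 20 cycles, each from another mouse according to the column names. The number of cycles and the mouse therefore cannot be told apart. Captured pieces of the region were pooled in a common lysate before extraction, so each library holds the other cells of CA2 beside its pyramidal cells. Values of the kit comparison are always given in the same order, QIAGEN before PicoPure RNA, first with NuGEN and then with Clontech, and those of the sheared libraries from the fewest cycles to the most.

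RGS proteins share a domain that binds an activated G alpha subunit and speeds the hydrolysis of its GTP, which shortens signaling from receptors that couple to Gi, Go, Gz or Gq. They are grouped by sequence. The R4 group (here *Rgs2*, *Rgs4*, *Rgs8* and *Rgs16*) consists of little more than the RGS domain. The R7 group (*Rgs6* and *Rgs7*) is stable only with the G protein subunit G beta 5, while the R12 group holds *Rgs10* and *Rgs12* beside *Rgs14*, and *Rgs17* belongs to the RZ group that acts on Gz. In area CA2, *Rgs14* is known as a restraint on synaptic plasticity.

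Because the genes are relatives, it was asked first how much sequence they share. In the longest coding transcripts of GENCODE vM21 (GRCm38), the longest identical run between any of the 45 pairs of the 10 genes had 24 bases, and the median over pairs was 11. The 3 longest runs each joined members of the same group or *Rgs14*, and they are shown with 12 bases on either side, the shared run in capitals, on the strand of the gene. The pair *Rgs8* (chr1:153690964-153690987, + strand) and *Rgs16* (chr1:153742029-153742052, + strand) shared the 24 bases.
Rgs8: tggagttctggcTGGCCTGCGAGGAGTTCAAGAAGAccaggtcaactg
Rgs16: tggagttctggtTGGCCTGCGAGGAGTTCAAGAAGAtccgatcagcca
The pair *Rgs6* (chr12:83063473-83063494, + strand) and *Rgs7* (chr1:175121899-175121920, - strand) shared 22 bases.
Rgs6: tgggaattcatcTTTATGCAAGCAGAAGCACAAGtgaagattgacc
Rgs7: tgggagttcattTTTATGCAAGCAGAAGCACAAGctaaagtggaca
The pair *Rgs10* (chr7:128403232-128403250, - strand) and *Rgs14* (chr13:55378708-55378726, + strand) shared 19 bases.
Rgs10: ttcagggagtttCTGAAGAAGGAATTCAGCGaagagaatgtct
Rgs14: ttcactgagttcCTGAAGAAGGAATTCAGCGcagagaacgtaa
All of these coordinates cover the capitals only. Outside such short runs the coding sequences differ, and counts are given for each gene by itself.

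The deposited values were normalized counts, that is reads divided by a size factor for each library, and they gave back the reads assigned to genes. There were 4548002 to 5194138 reads in the 2 unsheared NuGEN libraries, 10176710 to 10417443 in the 2 Clontech libraries and 33239387 to 39256039 in the sheared libraries. CA2 markers were present in every library, but at a wide range of levels. Of 10 listed, 8 had values in the kit comparison, where *Sostdc1*, for example, had 156 to 358 normalized counts. *Amigo2* had between 2237 and 3065 normalized counts in the kit comparison and between 12130 and 13744 in the sheared libraries. Other cells were present as well: the summed counts of 10 oligodendrocyte markers ranged from 3114 to 7053 and those of 9 microglial markers from 334 to 657 in the kit comparison. In such tissue, fewer cells of a type and less RNA per cell cannot be told apart.

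*Rgs4* and *Rgs7* were the most abundant members after *Rgs14*, and the other 7 lay at a few percent of *Rgs14* or under it. Levels between genes were compared per kilobase of merged exon length, as a percentage of *Rgs14* in the same library, a ratio that does not depend on the size factor. Not every gene read carried a count in an exon piece: *Rgs6* had 153 and 180 Clontech gene reads but 103 and 113 exon counts. All gene reads were still divided by exon length. *Rgs14* itself had 4649, 3849, 3761 and 3465 normalized counts in the kit comparison and 28269, 25481 and 28266 in the sheared libraries. All 9 members were below it in each of the 7 libraries. On this scale *Rgs14* stood at percentile 98.2 of the 12603 tested genes of the kit comparison with a length, *Rgs4* at 95.8, *Rgs7* at 83.2, *Rgs8* at 48.8, *Rgs10* at 47.7, *Rgs17* at 39.7, *Rgs2* at 38.3, *Rgs6* at 17.4, *Rgs12* at 9.35 and *Rgs16* at 8.68.

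On the gene reads, neighbours in the order of levels were separated mainly at its top in the sheared libraries, but not in the kit comparison. *Rgs4* ranked after *Rgs14* and *Rgs7* after *Rgs4* in every library. In the sheared libraries, *Rgs4* lay 1.26 ± 0.18 below *Rgs14* on the log2 scale (mean ± SD, n = 3 libraries), *Rgs7* lay 2.19 ± 0.20 below *Rgs4*, and *Rgs8* lay 1.59 ± 0.17 below *Rgs7*, each gap more than 2 SD. *Rgs8*, *Rgs17*, *Rgs10* and *Rgs2* followed in that order in all 3 sheared libraries, but with gaps of 0.20 ± 0.11, 0.17 ± 0.23 and 0.15 ± 0.09 that were within 2 SD. A wider step of 2.03 ± 0.58 separated *Rgs2* from *Rgs16*, below which *Rgs16*, *Rgs12* and *Rgs6* were not ordered. In the kit comparison, the gaps beyond 2 SD over the 4 libraries were those from *Rgs7* to *Rgs8* (1.94 ± 0.46) and from *Rgs8* to *Rgs17* (0.51 ± 0.22). The gaps of 1.16 ± 0.90 from *Rgs14* to *Rgs4* and 1.76 ± 1.09 from *Rgs4* to *Rgs7* were not. The library kits gave *Rgs4* very different levels. From the highest exon piece of each gene the order of the kit comparison turned: *Rgs4* lay 0.63 above *Rgs14* on average, and *Rgs8* (-1.70) and *Rgs17* (-1.94) lay above *Rgs7* (-2.45). On that measure *Rgs14* itself was 4.06 higher with NuGEN on the log2 scale, so these means join kits in which the reference lay far apart. The order also depended on the length used. With the longest transcript, the sheared means put *Rgs10* (-5.29) above *Rgs8* (-5.70), *Rgs17* (-6.06) and *Rgs2* (-6.13). Without length scaling, *Rgs8* (-3.86) and *Rgs17* (-4.28) lay above *Rgs2* (-5.79) and *Rgs10* (-6.72). *Rgs4* and then *Rgs7* followed *Rgs14* in both of these.

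**Figure D1:**
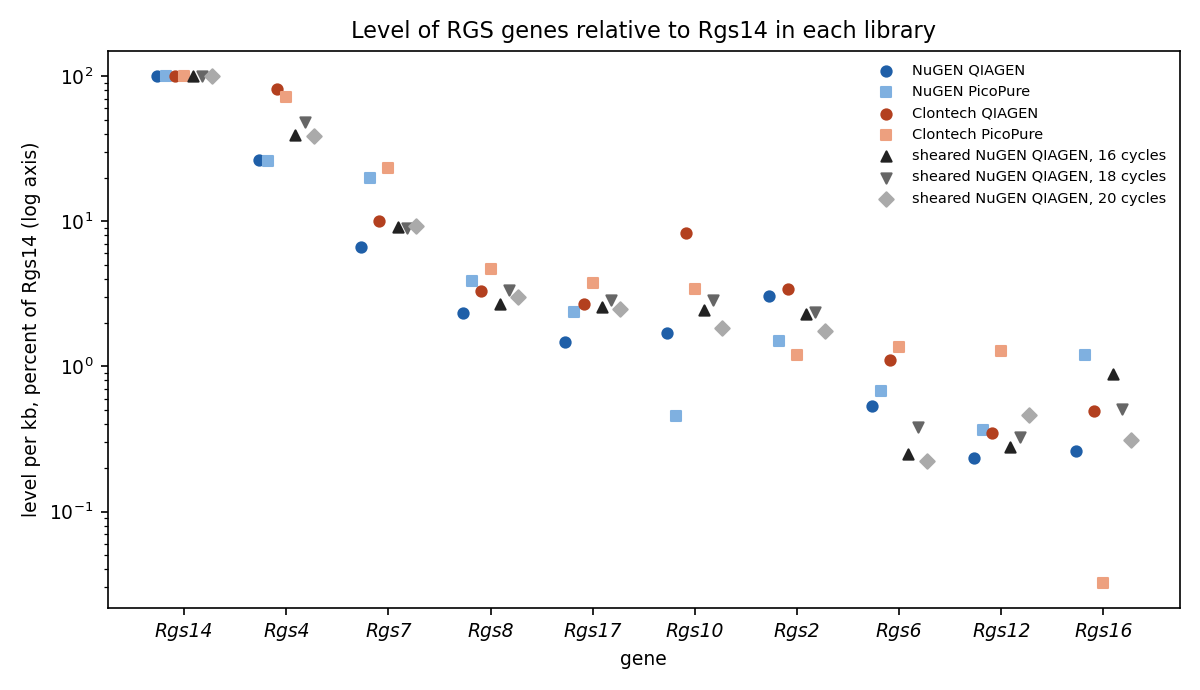
Level per kilobase of each RGS gene as a percentage of *Rgs14* in the same library (vertical log axis), with a point for each of the 7 libraries. *Rgs4* lies between 26.2% and 82.1% and *Rgs7* between 6.61% and 23.4%, while *Rgs16* spreads from 0.0325% to 1.19%.

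The first question asked of the libraries was whether the kit changed the levels. limma was used to estimate the difference between NuGEN and Clontech on the log2(normalized count + 1) scale, with the RNA sample as a further term. The fit covered 13048 genes, those that reached 10 normalized counts in 2 or more of the 4 libraries. All 9 members passed that filter, *Rgs16* through only the NuGEN PicoPure and Clontech QIAGEN libraries. At an adjusted p (Benjamini-Hochberg over all genes tested) under 0.05, 0 members were higher with NuGEN, 2 were lower (*Rgs4* and *Rgs10*) and 7 did not pass. Of all genes, 21.3% passed in this comparison, 10.8% higher and 10.5% lower, so 2 of 9 is near the background. The same 2 members had an unadjusted p under 0.05, beside 32.5% of all genes. The median difference of the 9 members was -0.54, beside -0.03 over all genes, and 7 of the 9 differences were negative. With 1 library per combination, 1 residual degree of freedom was left, and limma took most of the spread from the whole set of genes.

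The difference between RNA samples was taken from the same fit. Here 1 member, *Rgs7*, was higher with PicoPure, 0 were lower and 8 did not pass, whereas 1.76% of all genes passed, 1.45% higher and 0.314% lower. At an unadjusted p under 0.05 there were 3 members, *Rgs2*, *Rgs7* and *Rgs10*, beside 12.5% of all genes. The median difference was 0.13, beside -0.02 over all genes. In the sheared libraries a slope per cycle was fitted over 13639 genes, and 0 of the 9 members passed, beside 0.117% of all genes (0.044% with a positive slope and 0.0733% with a negative one). DESeq2 and edgeR on the recovered reads called 0 members there as well, and 0 had an unadjusted p under 0.05 in limma, beside 4.55% of all genes.

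**Figure D2:**
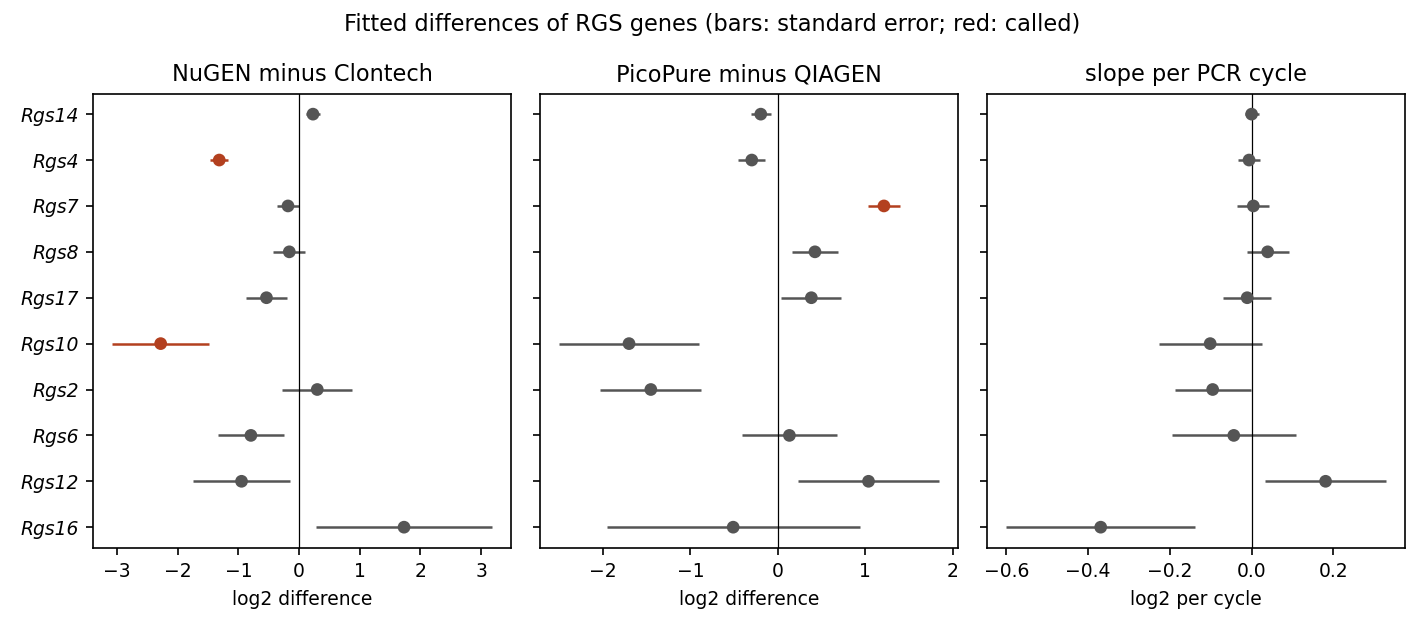
Fitted log2 difference of each RGS gene between NuGEN and Clontech libraries, between PicoPure and QIAGEN RNA, and per PCR cycle, with bars of 1 standard error from limma. Members that passed are red: *Rgs4* (-1.32) and *Rgs10* (-2.28) on the left and *Rgs7* (1.21) in the middle, with none on the right.

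*Rgs4* encodes a small RGS protein of the forebrain that acts on Gi, Go and Gq and is kept scarce by the N-end rule pathway of protein degradation. The gene lies at chr1:169741477-169747642 on the - strand. It had 896 and 736 normalized counts with the NuGEN kit, against 2256 and 1816 with the Clontech kit. Both Clontech libraries were above both NuGEN libraries, and within each kit the 2 RNA samples were close to each other. The fitted difference was -1.32 (standard error 0.15, adjusted p = 1.3e-08 from limma), which is 2.49-fold lower with NuGEN. It was -1.33 with QIAGEN RNA and -1.30 with PicoPure RNA. The counting intervals of the ratios in these pairs were 0.362 to 0.435 and 0.368 to 0.445, and they take reads as independent. In every one of 11 alternatives that used all 4 libraries the call was kept, with differences of -1.68 to -0.99. Leaving out any of the 4 libraries ended it, with adjusted p between 0.11 and 0.24, in fits from which the RNA term was dropped to leave a residual degree of freedom. PicoPure against QIAGEN RNA gave -0.30 (adjusted p = 0.42), -0.28 within NuGEN and -0.31 within Clontech.

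Relative to *Rgs14* per kilobase, *Rgs4* was 26.4% and 26.2% in the unsheared NuGEN libraries, 82.1% and 71.7% in the Clontech libraries and 39.1%, 48.2% and 38.4% in the sheared NuGEN libraries. The sheared values lay between those of the unsheared kits. The tables were normalized separately and the animals differed, so this is given as a description. In counts the sheared libraries gave 8083, 8978 and 7943, highest at the middle cycle number (slope -0.01 per cycle, standard error 0.0276, adjusted p = 1.00).

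Promoter windows of 250 bases before to 50 bases after the start were taken from RefSeq (GRCm38.p6). There were 12 windows for the 9 members, and *Rgs14* was not matched. Of these only that of *Rgs4* contains TATAAA, which 13.6% of all 32851 windows hold on either strand. The 100 bases before its start (chr1:169747643-169747742, - strand) are shown with TATAAA and ATTGG, which is CCAAT on the other strand, in capitals.
Rgs4: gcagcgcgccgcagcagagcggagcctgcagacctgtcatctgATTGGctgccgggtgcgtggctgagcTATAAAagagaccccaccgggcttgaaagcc
CCAAT was found on either strand in 5 of the 12 windows, those of *Rgs2*, *Rgs4*, *Rgs16* and 2 of *Rgs8*, beside 37.4% of all windows. The cyclic AMP response element TGACGTCA was in 0 of the 12 and in 1.79% of all.

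Exon counts placed the reads along the genes. A read counts in every exon piece that it covers, exons are numbered from the 5′ end, and a gene was compared where it had at least 3 exons and at least 100 exon counts in each of the 4 libraries. That held for 4 members (*Rgs4*, *Rgs7*, *Rgs8* and *Rgs17*) and not for the other 5. In 3 of the 4 members the first exon took a larger share of the counts in both NuGEN libraries than in both Clontech libraries, which was also true of 64.8% of the 6740 genes compared, so a share of 3 of 4 is near the background.

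In *Rgs4*, exon 1 held 17.1% of the counts with NuGEN and QIAGEN RNA (204 of 1194, Wilson 95% interval 15.1 to 19.3%) and 15.1% with NuGEN and PicoPure RNA. The Clontech kit gave 4.59% (interval 4.08 to 5.16%) and 7.18%. Exon 4, the last, held 48.9%, 49.4%, 43.1% and 52.4%, with no order by kit. These intervals take every exon count as independent. A read counts in each piece it covers, with 1194 exon counts from 538 gene reads in NuGEN QIAGEN. Copies made by PCR are not independent molecules either, so the intervals are too narrow even for counting error. The middle piece of exon 3, which is an intron in the coding transcripts of vM21, had 8, 2, 20 and 14 counts. The pieces on either side of it had 86, 108, 914 and 470 before and 220, 220, 1477 and 929 after, so the counts lay in the spliced parts in all 4 libraries.

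*Rgs8* encodes another R4 protein, best known in Purkinje cells of the cerebellum, and lies at chr1:153653025-153700323 on the + strand. Its normalized counts were 247, 341, 284 and 371 in the kit comparison. PicoPure was above QIAGEN with both kits, and the groups by kit overlapped. Neither difference passed: -0.16 between kits (standard error 0.27, adjusted p = 0.73 from limma) and 0.42 between RNA samples (standard error 0.27, adjusted p = 0.55). The PicoPure to QIAGEN ratio was 1.38 within NuGEN (counting interval 1.12 to 1.71) and 1.30 within Clontech (1.15 to 1.48). The sheared libraries had 1742, 1952 and 1943 normalized counts of *Rgs8*, which is 2.71%, 3.37% and 3.02% of *Rgs14* per kilobase.

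The exon counts of *Rgs8* were set against its annotated first exons. GENCODE vM21 gives the gene a distal first exon, from which a single transcript starts, and several first exons farther downstream that the table numbers 2 to 4 and the front of 5, as matched by their order. Exon 1 had 26 and 52 counts with NuGEN, then 11 and 1 with Clontech. Exons 2 to 4 together had 1, 0, 0 and 0. The 5 front pieces of exon 5 had 1 to 8 counts each with NuGEN and QIAGEN RNA and 0 in the other 3 libraries, whereas the 2 rear pieces, which the distal transcript also contains, had 9 to 24 counts each in all 4 libraries. In those 3 libraries the counts of a first exon were thus those of the distal one, and with Clontech they were few. In NuGEN QIAGEN the distal exon and the downstream ones both had counts, so the use of start sites was not resolved. Exon 1 took 8.67% and 11.1% of the counts with NuGEN, but 1.45% and 0.11% of those with Clontech.

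The 100 bases before each of the 3 RefSeq starts of *Rgs8* are printed to show the distal start beside the 2 downstream ones, with any CCAAT in capitals. The first is chr1:153652937-153653036, the second chr1:153665174-153665273 and the third chr1:153665573-153665672, all on the + strand. The second window has its CCAAT outside the bases shown.
Rgs8 distal: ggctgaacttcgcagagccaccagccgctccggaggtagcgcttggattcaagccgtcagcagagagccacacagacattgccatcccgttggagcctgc
Rgs8 middle: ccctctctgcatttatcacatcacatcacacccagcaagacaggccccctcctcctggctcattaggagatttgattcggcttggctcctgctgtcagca
Rgs8 proximal: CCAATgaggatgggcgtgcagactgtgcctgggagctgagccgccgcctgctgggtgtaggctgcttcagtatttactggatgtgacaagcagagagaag

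**Figure D3:**
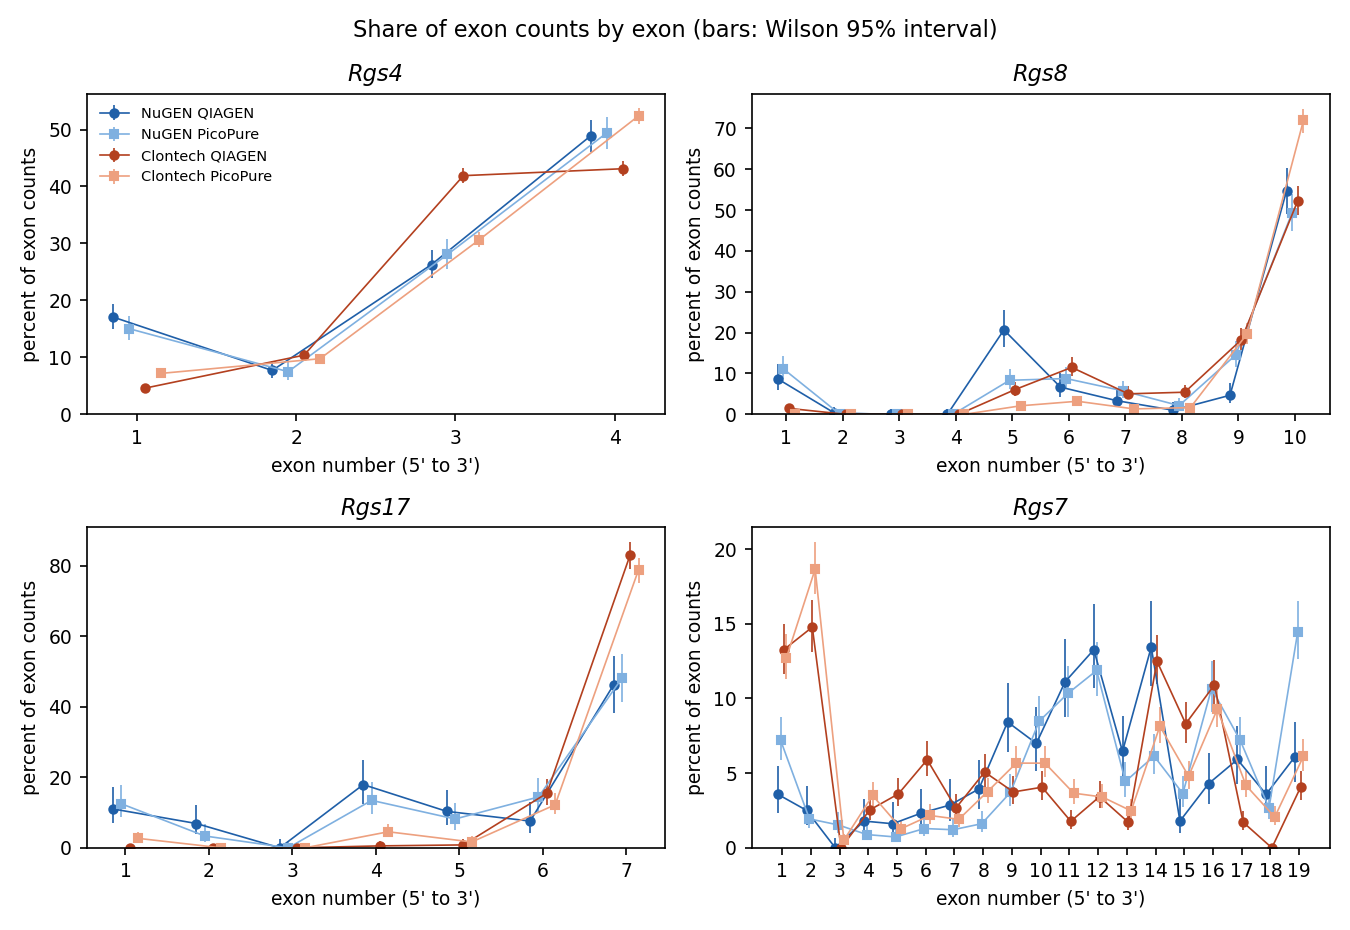
Percentage of a gene's exon counts in each exon, numbered from the 5′ end, for *Rgs4*, *Rgs8*, *Rgs17* and *Rgs7* in the 4 libraries of the kit comparison, with Wilson 95% intervals. Exon 1 of *Rgs4*, *Rgs8* and *Rgs17* stands higher in both NuGEN libraries, and exons 1 and 2 of *Rgs7* stand higher in both Clontech libraries.

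*Rgs2* encodes an R4 protein that prefers Gq alpha subunits and whose transcript is induced by activity in hippocampal neurons. It lies at chr1:143999338-144004161 on the - strand. It had 122 normalized counts in NuGEN QIAGEN, 49.1 in NuGEN PicoPure, 111 in Clontech QIAGEN and 35.4 in Clontech PicoPure, from 73, 35, 172 and 57 reads. Both QIAGEN libraries were above both PicoPure libraries. The fitted difference of -1.45 (standard error 0.58) had an unadjusted p of 0.016 and an adjusted p of 0.26, and it did not pass. The PicoPure to QIAGEN ratio was 0.404 within NuGEN (counting interval 0.262 to 0.613) and 0.32 within Clontech (0.233 to 0.434). The kit difference was 0.30 (adjusted p = 0.77). With rising cycles the counts were 552, 520 and 423 (slope -0.10, adjusted p = 1.00). In the NuGEN PicoPure library exon 1 held 80 of the 120 exon counts of *Rgs2* from 35 gene reads, against 19 of 173 in NuGEN QIAGEN and 0 of 72 in Clontech PicoPure. The 80 were 12 to 20 counts in each piece of the exon, and a read counts in every piece it covers.

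*Rgs16*, an R4 gene known in mice for its daily rhythm in the suprachiasmatic nucleus, lies at chr1:153740349-153745468 on the + strand. It rested on 4, 18, 16 and 1 reads in the kit comparison, or 6.66, 25.3, 10.3 and 0.621 normalized counts. Its order was not the same in the 2 kits, and neither difference passed (kit 1.73, standard error 1.45, adjusted p = 0.44; RNA sample -0.51, adjusted p = 0.94). In the sheared libraries it had 137, 71.2 and 48.7 normalized counts, from 129, 69 and 54 reads. This was the largest slope among the members, -0.37 per cycle (standard error 0.23, unadjusted p = 0.11, adjusted p = 1.00), and it did not pass. In the 16-cycle library the summed counts of 7 CA1 markers were 5141 as well, above the 2942 and 2647 at 18 and 20 cycles, and their part in the value of *Rgs16* was not tested.

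*Rgs7* encodes the R7 protein that acts on Go in neurons and reaches the membrane through R7BP or the orphan receptor GPR158. The gene spans chr1:175059087-175492500 on the - strand. It had 436 normalized counts in NuGEN QIAGEN, 1091 in NuGEN PicoPure, 534 in Clontech QIAGEN and 1151 in Clontech PicoPure. Both PicoPure libraries were above both QIAGEN libraries. The fitted difference was 1.21 (standard error 0.18, adjusted p = 3.3e-05 from limma), or 2.32-fold, and it was 1.32 within NuGEN and 1.11 within Clontech. In the pairs of libraries the ratio was 2.50 (counting interval 2.17 to 2.89) and 2.16 (1.99 to 2.34). The kit difference was -0.18 (standard error 0.18, adjusted p = 0.54). Summed counts of 7 CA1 markers were also higher with PicoPure in both kits, at 783, 1099, 478 and 918. Of the 5 tested, 0 passed between RNA samples, with a median difference of 0.93, and *Gm5741* was at 0 in all 4 libraries. Oligodendrocyte markers were lower with PicoPure in both kits (7053, 4340, 4588 and 3114), and 2 of 10 passed, beside 0.314% of all genes lower. The part of these markers in the value of *Rgs7* was not tested. CA2 markers summed to 7571, 7185, 8171 and 7496.

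The rise was smaller in the exon counts. *Rgs7* had 558, 1238, 1577 and 1940 exon counts against 262, 777, 830 and 1854 gene reads, which is 2.13, 1.59, 1.90 and 1.05 exon counts per gene read. The ratio was lower with PicoPure RNA in both kits, as for 45.9% of the genes compared, and in the Clontech PicoPure library *Rgs7* stood at percentile 9.57 of them. The study reports a smaller share of intronic reads from its RNA of higher quality with both kits. The part of such reads in the value of *Rgs7* was not tested. With the sum of exon counts in place of gene reads, an alternative chosen after the data were seen, the PicoPure difference was 0.65 with an adjusted p of 0.55 in limma. It was 0.56 with an adjusted p of 0.86 from the highest exon piece of each gene. In those 2 fits 1 of all genes passed, so the loss of the call was not particular to *Rgs7*. It was lost too when the kit was left out of the fit or any of the 4 libraries was left out (adjusted p from 0.91 to 1.00). Over the alternatives with all 4 libraries the adjusted p ran from 6.7e-08 to 1.00.

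**Figure D4:**
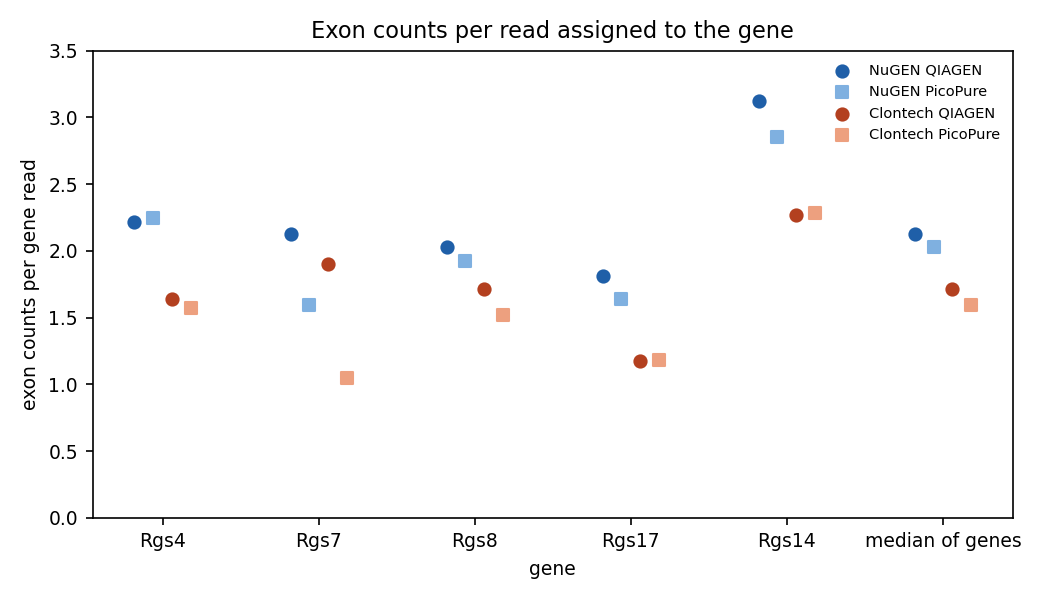
Exon counts per gene read of the 4 members with enough counts, of *Rgs14* and, on the right, the median over the 6740 genes compared, in the 4 libraries of the kit comparison. *Rgs7* goes from 2.13 to 1.59 within NuGEN and from 1.90 to 1.05 within Clontech, while the medians go from 2.13 to 2.03 and from 1.71 to 1.60.

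Along *Rgs7* the kits read different exons. With NuGEN, exons 1 and 2 of its 19 held 6.09% and 9.13% of the exon counts, whereas Clontech gave 28.0% and 31.4%, the reverse of the other 3 members. For exons 10 to 13 the NuGEN shares were 37.8% and 35.1% and the Clontech shares 11.0% and 15.2%. Exons 14 to 19 held 35.1%, 44.7%, 37.5% and 34.6% in the 4 libraries, with no order by kit. These exon ranges were chosen after their values were seen. From the highest exon piece the kit difference of *Rgs7* was 1.90 (adjusted p = 0.011), opposite in sign to the -0.18 of the gene reads. Relative to *Rgs14* per kilobase *Rgs7* was 6.61%, 20.0%, 9.99% and 23.4% in the kit comparison. In the sheared libraries it was nearly constant at 9.13%, 9.00% and 9.23% (3663, 3257 and 3706 normalized counts; slope 0.00, adjusted p = 1.00).

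*Rgs6*, the other R7 gene here, is known in the heart for limiting the vagal slowing of the beat. It spans chr12:82588292-83162056 on the + strand and had 58.3, 61.8, 98.4 and 112 normalized counts in the kit comparison. Both Clontech libraries were above both NuGEN libraries, but the difference of -0.79 (standard error 0.54, adjusted p = 0.33) did not pass, and that between RNA samples was 0.13 (adjusted p = 0.97). Its 153 and 180 Clontech reads came with 103 and 113 exon counts, or 0.673 and 0.628 exon counts per gene read, which put it at percentiles 0.727 and 1.80 of the genes compared, although it had too few counts to be among them. In the NuGEN PicoPure library exons 12 to 17 held 44 of its 53 exon counts, against 0 of 41 in NuGEN QIAGEN and 3 of 113 in Clontech PicoPure. The 44 were 5 to 9 counts in each exon, and a read that spans several exons counts in each, so few reads may lie behind them. *Rgs6* had 167, 229 and 148 normalized counts at 16, 18 and 20 cycles.

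Of the 5 listed partners of the R7 proteins, 3 were tested. *Rgs7bp*, which encodes the membrane anchor R7BP, had 2865, 2845, 2129 and 2559 normalized counts and *Gnb5*, which encodes G beta 5, had 365, 305, 317 and 348, and neither passed. *Gpr158* had 2236, 2129, 2865 and 3011 and was lower with NuGEN (-0.43, standard error 0.13, adjusted p = 0.011). Between RNA samples, where *Rgs7* passed, 0 of these 3 did. The other 2, *Rgs9bp* and *Gpr179*, had at most 12.9 normalized counts in any library of the kit comparison.

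*Rgs10* encodes a small R12 protein that acts on Gi and is abundant in microglia as well as in some neurons. It lies at chr7:128373621-128418758 on the - strand. It had 31.7 normalized counts in NuGEN QIAGEN, 7.02 in NuGEN PicoPure, 126 in Clontech QIAGEN and 47.8 in Clontech PicoPure, from 19, 5, 196 and 77 reads. Both Clontech libraries were above both NuGEN libraries, and with each kit QIAGEN was above PicoPure. The kit difference was -2.28 (standard error 0.80, adjusted p = 0.036 from limma), which is 4.86-fold lower with NuGEN. The NuGEN to Clontech ratio was 0.251 with QIAGEN RNA (counting interval 0.148 to 0.403) and 0.147 with PicoPure RNA (0.0464 to 0.358). The call was lost in DESeq2 (adjusted p = 0.057) and in 4 other alternatives with all 4 libraries, and the adjusted p ranged from 0.019 to 0.15 over the 10 alternatives of that kind in which the gene was tested. Leaving out any of the 4 libraries ended it as well (0.25 to 0.55) and moved the difference, to -3.29 without NuGEN QIAGEN, -1.27 without NuGEN PicoPure, -1.59 without Clontech QIAGEN and -2.97 without Clontech PicoPure.

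The RNA difference of *Rgs10* was -1.70 (standard error 0.80, unadjusted p = 0.039, adjusted p = 0.36). Microglial markers summed to 633, 657, 434 and 334 normalized counts in the same 4 libraries, higher with NuGEN where *Rgs10* was lower, and their part in its value was not tested. The microglial marker *Aif1* was at 0 in 3 of these libraries. Of the 8 microglial markers tested, 1 was higher and 0 were lower with NuGEN, beside 10.8% and 10.5% of all genes. Among the sheared libraries *Rgs10* had 280, 293 and 211 normalized counts (slope -0.10, adjusted p = 1.00) and ranked 6 of the 10 genes in all 3, whereas in the kit comparison its place ranged from 4 to 9.

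*Rgs12*, like *Rgs14*, encodes a large R12 protein with Ras-binding and GoLoco domains beside the RGS domain. It lies at chr5:34949445-35039644 on the + strand and had 21.7, 28.1, 26.4 and 88.8 normalized counts in the kit comparison, from 13, 20, 41 and 143 reads. The Clontech PicoPure library stood apart from the other 3. Neither difference passed (kit -0.95, standard error 0.80, adjusted p = 0.45; RNA sample 1.04, standard error 0.80, adjusted p = 0.67). The PicoPure to QIAGEN ratio was 1.30 within NuGEN (counting interval 0.614 to 2.84) and 3.37 within Clontech (2.37 to 4.89). In the sheared libraries it had 158, 166 and 261 normalized counts, the largest positive slope of the members (0.18 per cycle, standard error 0.15, unadjusted p = 0.22, adjusted p = 1.00), which did not pass. The 3 R12 genes thus covered a wide range of levels in the same tissue, with *Rgs12* at 0.278% to 0.461% of *Rgs14* per kilobase in the sheared libraries and *Rgs10* at 1.85% to 2.85%.

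*Rgs17* encodes an RZ protein that acts on Gz and Gi and lies at chr10:5825663-5922400 on the - strand. It had 133, 178, 199 and 253 normalized counts in the kit comparison. Both Clontech libraries were above both NuGEN libraries, and PicoPure was above QIAGEN with each kit. Neither difference passed (kit -0.54, standard error 0.34, adjusted p = 0.29; RNA sample 0.38, standard error 0.34, adjusted p = 0.73). From the highest exon piece the kit difference was -1.19 and passed (adjusted p = 0.042), the only one of 11 alternatives with all 4 libraries in which it did. In the sheared libraries it was even, with 1421, 1425 and 1378 normalized counts (slope -0.01, adjusted p = 1.00). The share of its last exon, exon 7, was 46.2% and 48.1% for NuGEN but 83.1% and 78.9% for Clontech. A last exon lower in both NuGEN libraries was found in 1 of the 4 members and in 40.5% of the genes compared. Exon 1 held 11.0% and 12.5% with NuGEN, 0 of 362 counts in Clontech QIAGEN (upper bound of the Wilson interval 1.05%) and 2.69% in Clontech PicoPure. In the QIAGEN libraries, exons 4 and 5 held 17.9% and 10.3% with NuGEN but 0.552% and 0.829% with Clontech. With PicoPure RNA the gap was smaller, 13.5% and 8.17% against 4.55% and 1.66%.

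Genes that work with the RGS proteins were described from 8 lists of 83 genes, of which 64 were tested in the kit comparison. With NuGEN 7 were higher, 13 were lower and 44 did not pass, where 10.8% of all genes were higher and 10.5% lower. With PicoPure RNA 2 were higher and 62 did not pass, beside 1.45% of all genes higher, and with PCR cycles 0 of 69 passed. Of 18 other genes with an RGS domain, 4 were lower with NuGEN (10.5% of all genes) and 0 higher (10.8%), and their median difference was -0.30, beside -0.03 over all genes. Those lower were the sorting nexins *Snx25* (-1.25) and *Snx13* (-1.01) and the receptor kinases *Grk6* (-1.23) and *Adrbk2* (-1.07). *Snx14*, the most abundant per kilobase of the list's genes with a known length, had 678, 659, 546 and 695 normalized counts and did not pass.

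Among the targets of RGS proteins, 1 of 11 G alpha subunits was higher with NuGEN and 1 was lower, near the background of 10.8% and 10.5% of all genes. *Gnao1*, which encodes Go alpha, had 8916, 7939, 4668 and 5365 normalized counts (0.75, adjusted p = 9.1e-07). *Gnai1*, which encodes a Gi alpha subunit, had 521, 535, 912 and 755 (-0.65, adjusted p = 0.012). *Gnas* (6670, 6248, 7308 and 5643), the gene of Gs alpha, and *Gnaq* (3092, 3166, 2610 and 3192), the gene of Gq alpha, did not pass. Of 9 G beta and gamma subunits, 4 were higher with NuGEN, beside 10.8% of all genes, and 0 were lower, beside 10.5%. *Gng3* had 4813 and 3781 against 381 and 238 (3.82, adjusted p = 4.0e-21) and *Gng2* had 2560 and 2167 against 1702 and 1732 (0.46). The other two were *Gng4* (0.79) and *Gng13* (2.96), the latter at a mean of 61.0 normalized counts. *Gnb1* had 4166, 3048, 4162 and 3667 and did not pass.

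Among effectors, 4 of 9 adenylyl cyclases, several of which Gi restrains, were lower with NuGEN, beside 10.5% of all genes: *Adcy1* (-0.90), *Adcy9* (-0.71), *Adcy5* (-0.60) and *Adcy2* (-1.14). *Adcy2* was also higher with PicoPure (278, 607, 687 and 1202 normalized counts; 0.96, adjusted p = 0.0026). Of the 4 phospholipase C beta genes, which Gq drives, *Plcb1* was lower with NuGEN (-0.56, adjusted p = 2.9e-04) and higher with PicoPure (2669, 3701, 3839 and 5580; 0.51, adjusted p = 0.0074). *Plcb4* (197, 220, 222 and 361) and the scarce *Plcb2* did not pass. The 3 tested G protein-gated potassium channel genes, *Kcnj6*, *Kcnj3* and *Kcnj9*, did not pass in any comparison, with 2776 to 3444, 1536 to 2279 and 118 to 230 normalized counts. Among 7 tested genes listed as other regulators or partners of G alpha subunits, *Rap1gap* (0.60) and *Gpsm3* (1.35) were higher with NuGEN, beside 10.8% of all genes. Lower were *Gprin1* (-0.54) and the chaperone gene *Ric8b* (-1.39), beside 10.5% of all genes.

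The genes whose pattern over the 7 libraries was most like that of the 3 most abundant members were sought among 7235 genes with a mean of at least 100 normalized counts in both tables. Likeness was the root mean square difference of log2 values after centring each gene within each table. Nearest to *Rgs4* were *Ppp2r5a* (0.0572), *Nckap1* (0.0612) and *Rab23* (0.0730). *Nckap1*, for example, had 5071, 4288, 12466 and 10517 normalized counts in the kit comparison. Nearest to *Rgs7* were *Plekhg1* (0.0539), *Ddx26b* (0.0831) and *Zcchc16*, and among those nearest to *Rgs8* were *Pde8b* (0.0235) and *Depdc5* (0.0485). With 1 library per condition these patterns hold the kit and the RNA sample as much as the tissue.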

How the data were processed

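Laser-captured CA2 RNA was sequenced in 7 libraries, each the only one of its group. The authors trimmed reads with Sickle, aligned them to mm10 with STAR 2.4.1d and counted them with featureCounts. Gene models were GENCODE M9 by the methods, which name vM12 for a further comparison of 3 CA2 samples, and which of them the sheared table used was not settled. The deposited gene values are a signal, counts divided by a DESeq2 size factor. All of them were whole multiples of the value of 1 read (100%, tolerance 0.01 read). The deposited exon values gave whole reads in the same way.

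Differences were fitted with limma 3.58.1 in R 4.3.3 on log2(normalized count + 1), without ribosomal RNA and mitochondrial genes. As alternatives, the recovered reads were tested with DESeq2 1.42.0 and with edgeR 4.0.16, which called 1953 and 2781 genes between kits, 182 and 293 between RNA samples and 8 and 13 over cycles. Gene lengths and coding sequences came from GENCODE vM21 (GRCm38), and promoters from RefSeq. Counting intervals are exact for ratios and Wilson for shares. The Wilson intervals take exon counts as independent and are therefore too narrow. Those of the ratios take reads as independent, which copies made by PCR are not, so they can be too narrow as well. Standard errors rest on these libraries only, and limma took them mostly from the trend over all genes. For kit and RNA sample the prior had 36.2 degrees of freedom beside 1 residual, and for cycles they came wholly from that trend. Members and lists were chosen with earlier results of these data known. The 10 RGS genes, the 3 most abundant genes of each list and any list gene called at a mean of at least 100 normalized counts were named. *Gng13* and genes under the filter were added after their values were seen. A gene whose pattern was also near that of *Rgs8* is not reported here.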

Additional observations from a re-analysis of the deposited data

Results flagged for a closer look

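*Rgs16* was picked out because its 2 within-kit differences and its 2 within-RNA differences pointed in opposite directions. PicoPure over QIAGEN RNA gave a log2 ratio of 1.78 with NuGEN and -2.80 with Clontech. NuGEN over Clontech gave -0.56 with QIAGEN RNA and 4.02 with PicoPure RNA. These values rest on 4, 18, 16 and 1 reads, and the difference between them was not tested, because a term for it would leave no residual degree of freedom. The counting interval of the first ratio was 1.25 to 15.4 and that of the second 0.00144 to 0.388 as linear ratios, which cover counting error only.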

How the results depend on the processing

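Between kits 2 members were called. The number was 1 with no filter on low values, with a filter of 50 normalized counts (6 members tested), in DESeq2, from the sum of exon counts (an alternative chosen after seeing the data) and with the RNA term left out. It was 3 of 8 tested from the highest exon piece, *Rgs4*, *Rgs7* in the other direction and *Rgs17*, but not *Rgs10*. Leaving out 1 library each, with the other term dropped so that the fit kept a residual degree of freedom, gave 0 to 0, with 1 to 58 genes called in all beside 2784. Leaving out that term alone gave 1145 genes. The 1 member called between RNA samples became 0 from the highest exon piece (1 gene called in all, beside 230), from the sum of exon counts (1 gene), with the kit term left out (0 genes) and without any of the libraries (0 to 0; 0 genes in all). The filter of 50 normalized counts called 358 genes there. For cycles, 0 members were called under all 8 alternatives, and DESeq2 called 8 genes beside 16.

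From the highest exon piece *Rgs7* turned to 1.90 between kits, and the mean level of *Rgs4* relative to *Rgs14* turned to 0.63 on the log2 scale, for causes that were not tested. From that piece 6 of the 9 members were below *Rgs14* in every library of the kit comparison, against 9 with the other alternatives. From the highest exon piece and from the exon sum *Rgs14* itself was called higher with NuGEN (4.06 and 0.47). A stricter minimum of exon counts left 2 members, of which 1 had the larger first-exon share with NuGEN. Of the single-gene alternatives 461 were counted as the same, 20 became weaker, 3 stronger and 2 reversed, and 24 values with no test moved. To be counted as the same, a difference that did not pass need not keep its sign. The kit difference of *Rgs2*, for example, ran from -0.51 to 1.11 when 1 library was left out. No paired analysis was possible because each group has 1 library, so a replicate number tells no libraries apart. That both kits used the same 2 RNA samples was already a term of the fit. With 1 library per condition and at most 25.3 normalized counts in the kit comparison, *Rgs16* could not be ordered.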

Other observations

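*Gpsm3*, which encodes a small GoLoco protein that binds inactive Gi alpha subunits, had 388, 256, 138 and 109 normalized counts in the kit comparison but 12.8, 12.4 and 3.61 in the sheared libraries. The tables were normalized separately, so the values are only set side by side.

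Set against *Rgs14* per kilobase, the sheared libraries had a higher mean log2 level than the unsheared NuGEN library of QIAGEN RNA for *Rgs16* (1.00), *Rgs17* (0.85), *Rgs4* (0.66), *Rgs12* (0.58), *Rgs10* (0.48), *Rgs7* (0.46) and *Rgs8* (0.37) and a lower one for *Rgs2* (-0.53) and *Rgs6* (-0.94). With 1 unsheared library of this kind, no test was made.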
